A study of Mus musculus with 26 samples.

Results

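The genes described here are 10 components of the Notch pathway, of the 55341 genes in each count file: the receptors Notch1, Notch2 and Notch3, the ligands Dll1, Jag1 and Jag2, the transcriptional targets Hes1, Hey1 and Heyl, and the related factor Hes6. They were chosen by name, and Ensembl identifiers were turned into symbols with GENCODE M21. All 10 passed the filter on low counts in both experiments. RNA-Seq was performed in 26 libraries of C2C12, a mouse myoblast line that withdraws from the cell cycle and forms myotubes when serum is reduced. In the knockdown experiment, 18 libraries came from cells transfected with the control siRNA siCtrl, siSMYD3#1 or siSMYD3#2 and collected before (0 h) or 24 h after transfer to differentiation medium, with 3 libraries per group. SMYD3, the gene under study, encodes a lysine methyltransferase. The 8 overexpression libraries came from SMYD3 CL5, which is 1 clone carrying tagged SMYD3 in the pREV retroviral vector, and from vector control cells with the Empty vector (pREV), at 0 h and 24 h, with 2 libraries per group. In every siRNA group 1 library was extracted with TRIzol from cells at passage 11 and 2 were extracted with the NucleoSpin RNA Kit from cells at passage 14, so extraction and passage cannot be told apart. All overexpression libraries were extracted with TRIzol.

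In Notch signalling, a ligand of the Delta or Jagged family on a cell binds a Notch receptor on its neighbour. The receptor is then cut by the gamma-secretase complex, and its intracellular domain moves to the nucleus, where it joins the DNA-binding protein RBPJ and a Mastermind coactivator to switch on Hes and Hey genes, which encode repressors. In skeletal muscle the pathway is known for keeping satellite cells and myoblasts undifferentiated. Hes6 is a divergent family member, known to antagonise Hes1 and to be expressed during muscle differentiation.

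Libraries held 14315193 to 60398170 counts in the knockdown experiment and 21124675 to 67853386 in the overexpression experiment. Levels are CPM, counts divided by library sizes that were scaled by TMM within each experiment, and intervals cover the estimated difference ± 1.96 standard errors (SE). Each SE was computed from the fitted difference and the F value of its edgeR test. With few libraries these intervals are narrower than the test allows. Hes6 between SMYD3 CL5 and vector control at 0 h had an interval of 0.1 to 1.56 at an unadjusted edgeR p of 0.0586. Smyd3 was 20.5 ± 1.09 CPM (SD, n = 3) with siCtrl at 0 h and 7.62 ± 1.28 with siSMYD3#2, a log2 difference of -1.41 (edgeR adjusted p = 0.000107), and it was also lower with siSMYD3#2 at 24 h (-1.51, edgeR adjusted p = 5.06e-05). In the libraries labelled siSMYD3#1 it was 18.4 ± 1.32 CPM at 0 h and 16.5 ± 2.4 at 24 h (n = 3 each), which did not pass the test (log2 differences of -0.16 and -0.24, edgeR adjusted p = 0.785 and 0.414). The mRNA counts therefore do not show the knockdown in these libraries, and they are called by their label throughout. The paper also examined SMYD3 protein by western blot and Smyd3 mRNA by qPCR in knockdown cells, which these counts do not address. Counts of mouse Smyd3 did not pass the test in SMYD3 CL5 either (0.29 at 0 h and 0.36 at 24 h, edgeR adjusted p = 0.593 and 0.671), and whether the transgene would be counted there is not given in the sources used here. The myoblast markers Myod1 and Pax7 were at 4.67 to 38.6 and 0.506 to 3.66 CPM in the siRNA libraries. Of 22 markers of endothelial, blood, adipocyte, epithelial and glial cells, 7 passed the filter in the siRNA libraries. Among these 7, the epithelial marker Krt14 was at 1.44 to 55.8 CPM and the blood marker Cd68 at 1.75 to 6.57. Another 4 of the 22 had no counts in any of these libraries, among them Adgre1, Lep and Epcam. The TRIzol and NucleoSpin libraries differed in 51.3% of all genes tested and in 6 of the 10 Notch pathway genes: Hes1 (log2 difference 0.75), Jag1 (0.68) and Notch2 (0.5) were higher with TRIzol, and Heyl (-1.73), Notch3 (-0.43) and Jag2 (-0.37) were lower. The Notch3 call was lost without any 1 library of the siCtrl 0 h, siSMYD3#1 or siSMYD3#2 0 h groups or the siSMYD3#1 24 h group (-0.29 to -0.45, edgeR adjusted p of 0.0118 to 0.0515). Extraction was a term of the fit, as in the study's own model, and TRIzol and NucleoSpin values are named apart below. With TRIzol, 3 of 5 myoblast identity markers were lower and 1 higher (median log2 difference -0.93), and 5 of 13 muscle differentiation markers were lower (median -0.56). Their part in the differences between extractions was not tested.

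The sequences shown first belong to the results that follow. For Dll1 and Hes6, which rose in siCtrl cells, the RefSeq bases just before 1 of 2 listed start sites are given, on the minus strand of GRCm38.p6. The capitals mark E-boxes (CANNTG), the motif bound by myogenic factors of the MyoD family. The Dll1 stretch is chr17:15376933-15377182 and lies wholly within exons of A930024N18Rik, a noncoding gene on the opposite strand. The Hes6 stretch is chr1:91414039-91414288 and holds no annotated exon.
Dll1: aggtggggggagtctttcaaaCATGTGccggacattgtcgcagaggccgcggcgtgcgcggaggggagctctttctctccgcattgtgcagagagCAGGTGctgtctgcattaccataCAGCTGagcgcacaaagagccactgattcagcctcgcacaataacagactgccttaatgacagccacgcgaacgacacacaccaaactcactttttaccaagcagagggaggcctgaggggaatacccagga
Hes6: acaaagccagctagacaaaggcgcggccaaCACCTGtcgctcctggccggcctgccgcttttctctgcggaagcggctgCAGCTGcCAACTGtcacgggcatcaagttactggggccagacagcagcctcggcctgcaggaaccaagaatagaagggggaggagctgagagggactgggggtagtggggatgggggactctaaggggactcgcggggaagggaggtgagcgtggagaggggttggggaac
These stretches hold 3 E-boxes each and were picked with the motif counts known. The share of all windows that hold 3 was not counted, so no enrichment can be read from these numbers. The stretches before the other listed starts, chr17:15375824-15376073 for Dll1 and chr1:91413223-91413472 for Hes6, hold 1 E-box each, and the latter also 1 N-box. Over all 32851 RefSeq windows of 300 bases, 72.3% hold an E-box on either strand, 42.5% an N-box (CACNAG), the motif bound by Hes proteins, and 25.6% the RBPJ core (TGGGAA). RefSeq windows were found for 7 of the 10 genes, and Hes1, Hey1 and Heyl had no entry. The RBPJ core was in 0 of the 9 windows of those 7 genes. Jag2 held none of these motifs, Jag1 held 1 E-box, and Notch1, Notch2 and Notch3 held 3, 1 and 2 N-boxes. These matches describe letters in a window and not a bound site.

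The antisense strands of the siRNAs are printed because their seeds (bases 2 to 8, in capitals) can match other transcripts.
siSMYD3#1: gUUGGGGUcacagcuguga
siSMYD3#2: uCAAAUCUucaaucaggcu
siCtrl: aCGUGACAcguucggagaa
Each of the SMYD3 strands was fully complementary to 1 of the 3 coding Smyd3 transcripts of GENCODE M21, and siCtrl to 0. The site for the siSMYD3#1 seed, ACCCCAA, was in the longest 3′UTR of 9.36% of 21037 genes and in 0 of the 10 Notch pathway genes. AGATTTG, the site for the siSMYD3#2 seed, was in 11.9% of genes and occurred once each in Hes6 and Jag1. The siCtrl site, TGTCACG, was in 2.41% of genes and in 0 of the 10. This search was made after the expression values had been seen, and the part of the seeds in any difference was not tested.

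When siCtrl cells differentiated for 24 h, 5 of the 10 Notch pathway genes passed the threshold (adjusted p under 0.01), where 29.4% of all 15820 genes tested did. Dll1, Heyl and Hes6 rose, and Hey1 and Jag2 fell. The median log2 change of the 10 genes was 0.39, against 0.03 for all genes tested, and their median size of change was 0.64, against 0.37. In these bulk samples, fewer cells expressing a gene and less RNA per cell cannot be told apart. Over the same interval 12 of 13 muscle differentiation markers rose (median log2 change 6.86), among them Myog (7.25), and all 10 cell division markers fell. The plot of the 10 genes by library shows these levels together with those of the other siRNA groups.

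**Figure D1:**
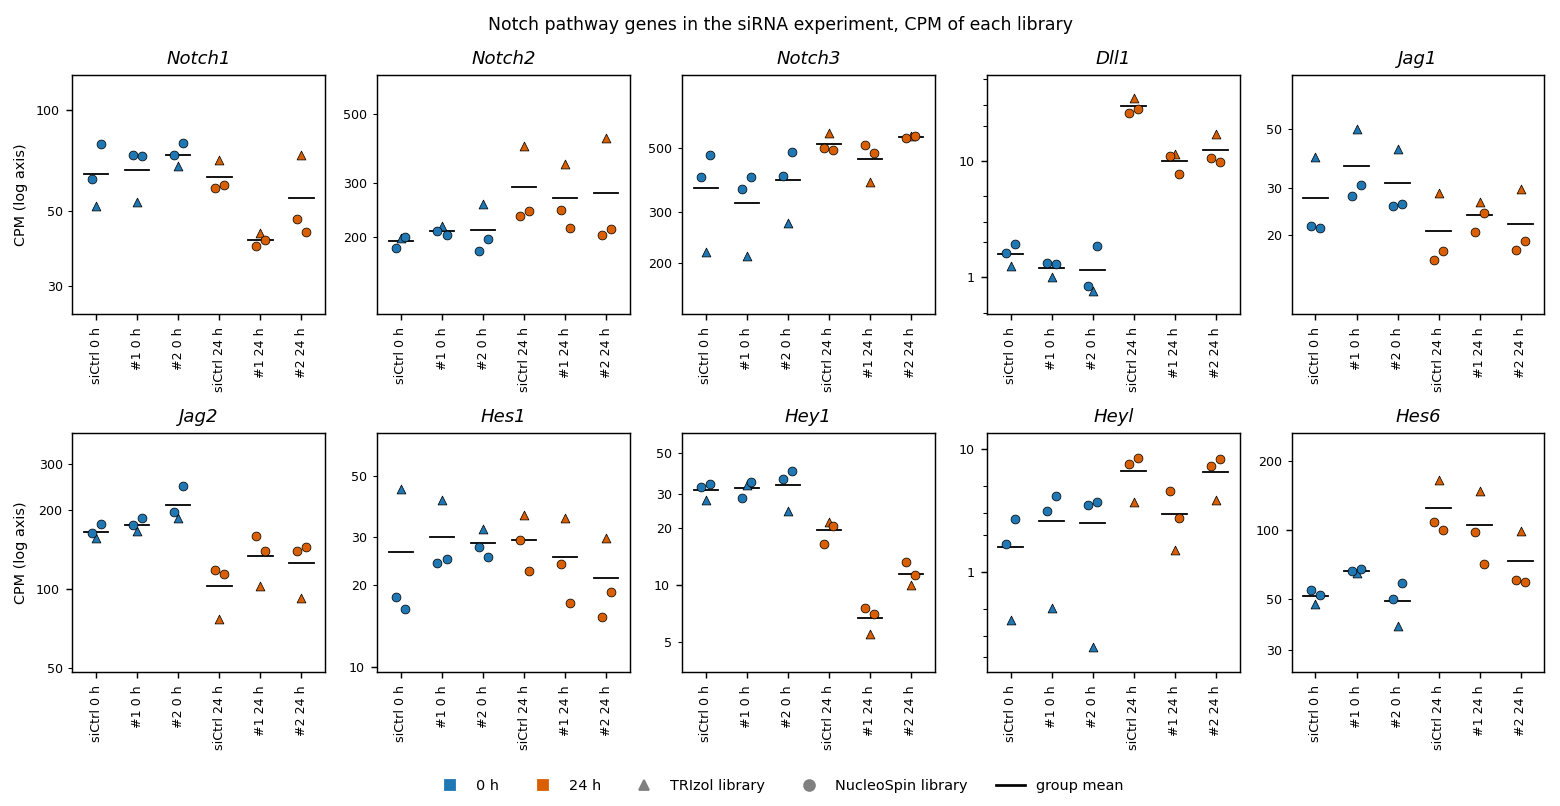
Level of each Notch pathway gene in each of the 18 siRNA libraries, in CPM on a log axis, with #1 and #2 standing for siSMYD3#1 and siSMYD3#2. Triangles are TRIzol and circles NucleoSpin libraries, bars are group means (n = 3), and the 24 h libraries of Dll1 lie above all its 0 h libraries, from 7.71 to 34.3 CPM against 0.772 to 1.92.

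Among these 3 receptors, Notch3 had the highest level per kilobase of exon and Notch1 the lowest. At 0 h in siCtrl cells Notch3 stood at 44.9 ± 16.3 CPM per kb, Notch2 at 18 ± 0.859 and Notch1 at 4.53 ± 0.962 (SD, n = 3). Notch4, the remaining receptor and not one of the 10 genes, was at 0.158 to 0.844 CPM over the siRNA libraries. Between them stood Hes6 at 28.6 ± 1.96, Jag2 at 23.7 ± 1.52, Hes1 at 13.0 ± 7.89, Hey1 at 9.68 ± 0.983 and Jag1 at 4.71 ± 1.78 CPM per kb. Dll1 and Heyl were lowest, at 0.378 ± 0.0793 and 0.312 ± 0.224 CPM per kb, and did not differ beyond their spread. The SDs of Notch3 and Hes6, of Notch2 and Hes1, of Hes1 with Hey1, Jag1 and Notch1, and of Jag1 and Notch1 also overlapped. Library by library, Notch3 was above Hes6 in all 3 (26.9, 49.0 and 58.8 against 26.5, 30.4 and 28.9, TRIzol first). Every Hes1 value (22.1, 8.86 and 8.02) was above every Jag1 (6.76, 3.7 and 3.66) and Notch1 value (3.65, 4.37 and 5.56). The values of Notch2 and Hes1, of Hes1 and Hey1, and of Jag1 and Notch1 overlapped, so these pairs are not ordered by the data. At 24 h Hes6 (69.2 ± 19.8 CPM per kb) and Notch3 (64.1 ± 4.75) led and overlapped. Dll1 had moved up to 6.94 ± 1.06, and its SD overlapped that of Hey1 at 5.95 ± 0.794.

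None of the 3 receptors passed the threshold between 0 h and 24 h in siCtrl cells. Notch3 was 218 CPM in the TRIzol library and 396 and 475 in the NucleoSpin libraries at 0 h, and 563, 500 and 493 in the same order at 24 h. All 24 h values lay above all 0 h values, but the TRIzol library carried most of the difference (within-extraction log2 ratios of 1.37 for TRIzol and 0.19 for NucleoSpin), and the fitted change of 0.59 (SE 0.202) did not pass (edgeR adjusted p = 0.0297). For Notch2, TRIzol and NucleoSpin values at 0 h were 199, 184 and 200 CPM, and those at 24 h were 394, 234 and 243. These groups did not overlap either, and the change of 0.52 (SE 0.154) missed the threshold (edgeR adjusted p = 0.0112). Notch1 overlapped between the time points and differed by -0.03 (interval -0.4 to 0.33). Opposite-strand genes overlap Notch1 over 1482 exon bases and Notch3 over 488, and Gm42820 overlaps Notch2 over 541 on its own strand, so their counts are uncertain to that extent.

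Dll1, a Delta-type ligand, showed the largest change of the 10 genes. Its level at 0 h was 1.25 CPM in the TRIzol library and 1.61 and 1.92 in the NucleoSpin libraries, and at 24 h it was 34.3, 25.9 and 27.6. Every 24 h library was far above every 0 h library. The change was 4.14 on the log2 scale (SE 0.273), a 17.7-fold rise (edgeR adjusted p = 5.98e-09). Dll1 lies at chr17:15367354-15376872 on the minus strand of GRCm38 and shares 867 exon bases with A930024N18Rik, on the opposite strand, and its counts are uncertain to that extent since the strand setting of the counting is not given in the sources used here. Of the Jagged ligands, Jag2 went the other way. Jag2 was 156, 163 and 177 CPM at 0 h and 76.7, 118 and 114 at 24 h, TRIzol first, so that all 24 h values were below all 0 h values. It fell by 0.71 (SE 0.118, edgeR adjusted p = 9.75e-05). Jag1 differed by -0.39 (SE 0.115) with overlapping groups and missed the threshold (edgeR adjusted p = 0.0107).

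The Hes and Hey genes did not move together. Hey1, which encodes a repressor induced by Notch, was 28 CPM with TRIzol and 32.8 and 34.0 with NucleoSpin at 0 h, and 21.4, 16.5 and 20.4 at 24 h. The groups did not overlap, and Hey1 fell by 0.69 (SE 0.149, edgeR adjusted p = 0.00111). The call was lost without 1 NucleoSpin library at 24 h (the siCtrl library at 16.5 CPM), at -0.54 (edgeR adjusted p = 0.0134). Heyl, another repressor of the same family, rose from 0.405, 1.68 and 2.69 CPM to 3.69, 7.49 and 8.49, TRIzol first. Its groups did not overlap, although the TRIzol library was the lowest at each time point, and the change was 2.17 (SE 0.394, a 4.5-fold rise, edgeR adjusted p = 0.000313). Hes1, the classical Notch target, was 45.0 CPM with TRIzol and 18 and 16.3 with NucleoSpin at 0 h, and 36.0, 29.1 and 22.5 at 24 h. These groups overlapped, the log2 ratio was -0.32 with TRIzol and 0.59 with NucleoSpin, and the fitted difference of 0.25 did not pass (edgeR adjusted p = 0.281). With the NucleoSpin libraries alone it was 0.58 and passed (edgeR adjusted p = 0.00495). Hes6 rose from 47.9, 55.0 and 52.2 CPM to 166, 109 and 100, with no overlap, by 1.24 (SE 0.24, a 2.36-fold rise, edgeR adjusted p = 0.000845).

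The other genes of the pathway were taken from a list of 61, of which 50 were tested in the siRNA libraries. In siCtrl cells 10 of them rose and 5 fell between 0 h and 24 h, a share close to the 29.4% of all genes that were called, and their median change of 0.07 was close to the 0.03 of all genes tested. Rbpj and the Mastermind coactivator Maml1 did not pass, at 0.06 and 0.08 (edgeR adjusted p = 0.835 and 0.399), nor did Numb, an inhibitor that binds the receptor (0.02, edgeR adjusted p = 0.873). The other Mastermind coactivators rose, Maml2 by 0.71 and Maml3 by 0.56. Of the gamma-secretase subunits, Psen2 rose by 1.24 and Ncstn by 0.48. Neurl1a, an E3 ubiquitin ligase of the Neuralized family, whose members act on Notch ligands, rose by 1.88. Dtx4, Dtx3, Kat2b, Tle2 and Numbl rose by 2.12, 0.7, 0.89, 0.84 and 0.39. The Delta-like protein gene Dlk2 fell by 1.73, and Hdac1, Kat2a, Ctbp2 and Hdac2, which encode chromatin enzymes and a corepressor, fell by 0.66, 0.52, 0.43 and 0.31. Dll3, Dll4, Dlk1, Mfng, Dtx1, Hes2, Hes3, Hes5, Hes7, Hey2 and Nrarp did not pass the filter.

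Before differentiation the siRNAs left no Notch pathway gene past the threshold. At 0 h the libraries labelled siSMYD3#1 had 0 of 10 called against siCtrl with edgeR (background 1.43%), 1 at an unadjusted p under 0.05, and 0 with DESeq2. That gene was Jag1, at 50.1 CPM with TRIzol and 28.1 and 30.9 with NucleoSpin, against 39.4, 21.6 and 21.3 in siCtrl. Within each extraction the siSMYD3#1 values were the higher ones, and the log2 difference was 0.42 (SE 0.113, edgeR adjusted p = 0.0446). With siSMYD3#2 at 0 h, 0 of 10 were called with edgeR (background 0.531%), 1 had an unadjusted p under 0.05, and 0 were called with DESeq2. This was Jag2, with 187, 196 and 247 CPM against 156, 163 and 177, TRIzol first. All siSMYD3#2 values were above all siCtrl values, and the difference was 0.34 (SE 0.117, edgeR adjusted p = 0.248). Between the SMYD3 siRNAs at 0 h, 0 of 10 were called with edgeR (background 1.17%), 1 at an unadjusted p under 0.05 (again Jag2, at -0.25), and 0 with DESeq2. For Dll1 and Hey1 at 0 h the intervals of the difference from siCtrl were -1.08 to 0.18 and -0.24 to 0.33 in the libraries labelled siSMYD3#1, and -1.15 to 0.09 and -0.21 to 0.36 with siSMYD3#2. The other pathway genes had 2 of 50 called in the libraries labelled siSMYD3#1, both for gamma-secretase subunits: Aph1a was lower (-0.62, edgeR adjusted p = 0.00159) and Ncstn higher (0.38, edgeR adjusted p = 0.00287). With siSMYD3#2, 0 of 50 were called and 11 had an unadjusted p under 0.05. Here and below, each background is the share of all genes past the adjusted threshold. The share at an unadjusted p under 0.05 is not given, so counts at that p are a description only.

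At 24 h, Dll1 and Hey1 were lower than in siCtrl cells with either siRNA, and no other Notch pathway gene passed. This was 2 of 10 genes for siSMYD3#1, where 5.85% of all genes were called, and 2 of 10 for siSMYD3#2, where 3.7% were. Both comparisons use the same 3 siCtrl libraries, so they are not independent. Dll1 was 11.4 CPM with TRIzol and 10.9 and 7.71 with NucleoSpin in the libraries labelled siSMYD3#1, against 34.3, 25.9 and 27.6 in siCtrl. With siSMYD3#2 it was 17.0 with TRIzol and 10.6 and 9.75 with NucleoSpin. All 6 values lay below the 3 siCtrl values. The difference from siCtrl was -1.53 (SE 0.236, 2.89-fold lower, edgeR adjusted p = 0.000292) in the libraries labelled siSMYD3#1 and -1.24 (SE 0.235, 2.36-fold lower, edgeR adjusted p = 0.00295) with siSMYD3#2. Within extractions the log2 ratios were -1.59 (TRIzol) and -1.52 (NucleoSpin) in the former and -1.01 and -1.4 in the latter.

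Hey1 at 24 h was 5.49 CPM with TRIzol and 7.51 and 7.0 with NucleoSpin in the libraries labelled siSMYD3#1. It was 9.96, 13.1 and 11.2 in the same order with siSMYD3#2, against 21.4, 16.5 and 20.4 in siCtrl. The 3 groups did not overlap, with siCtrl highest and the libraries labelled siSMYD3#1 lowest. Against siCtrl the difference was -1.56 (SE 0.162, 2.96-fold lower, edgeR adjusted p = 5.4e-06) in those libraries and -0.78 (SE 0.157, 1.72-fold lower, edgeR adjusted p = 0.00377) with siSMYD3#2. The within-extraction log2 ratios were -1.96 (TRIzol) and -1.35 (NucleoSpin) for siSMYD3#1 and -1.1 and -0.6 for siSMYD3#2. Leaving out any 1 of the 6 libraries kept both calls in the libraries labelled siSMYD3#1. With siSMYD3#2, the Dll1 call was kept only without its TRIzol library (-1.55, edgeR adjusted p = 0.00127) and was lost without any other library (-1.1 to -1.29, 0.012 to 0.0334). Its Hey1 call was kept only without the siCtrl NucleoSpin library at 16.5 CPM (-0.93, 0.00319) and was otherwise lost (-0.58 to -0.86, 0.0122 to 0.0331). Both siSMYD3#2 calls were also lost without extraction in the fit, where the adjusted p of edgeR was 0.0687 for Dll1 and 0.0685 for Hey1, and with all 26 libraries in 1 fit (0.0396 and 0.11). The Dll1 call in the libraries labelled siSMYD3#1 was lost without extraction in the fit as well (0.0143).

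Muscle differentiation markers were lower with either siRNA at 24 h, as Dll1 and Hey1 were. In siCtrl cells over time, Dll1 and 12 of 13 such markers rose while Hey1 fell (-0.69). Against the vector control at 24 h, SMYD3 CL5 had higher markers (median 4.22) and lower Hey1 (-1.17), none past the threshold. Of the 13, 12 were lower in the libraries labelled siSMYD3#1 (median log2 difference -3.5) and 11 with siSMYD3#2 (median -2.1), and Myog was lower by -3.59 and -1.81. Their summed level was 840 to 2460 CPM in siCtrl, 156 to 228 in the libraries labelled siSMYD3#1 and 366 to 436 with siSMYD3#2. Of 10 cell division markers, 1 was higher with siSMYD3#1 and 5 with siSMYD3#2. Markers of other cell types summed to 13.2 to 25.8 CPM in siCtrl, 15.3 to 58.2 in the libraries labelled siSMYD3#1 and 7.16 to 22.9 with siSMYD3#2, with Krt14 the most abundant over the siRNA libraries. The part of these marker levels in the differences of Dll1 and Hey1 was not tested.

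**Figure D2:**
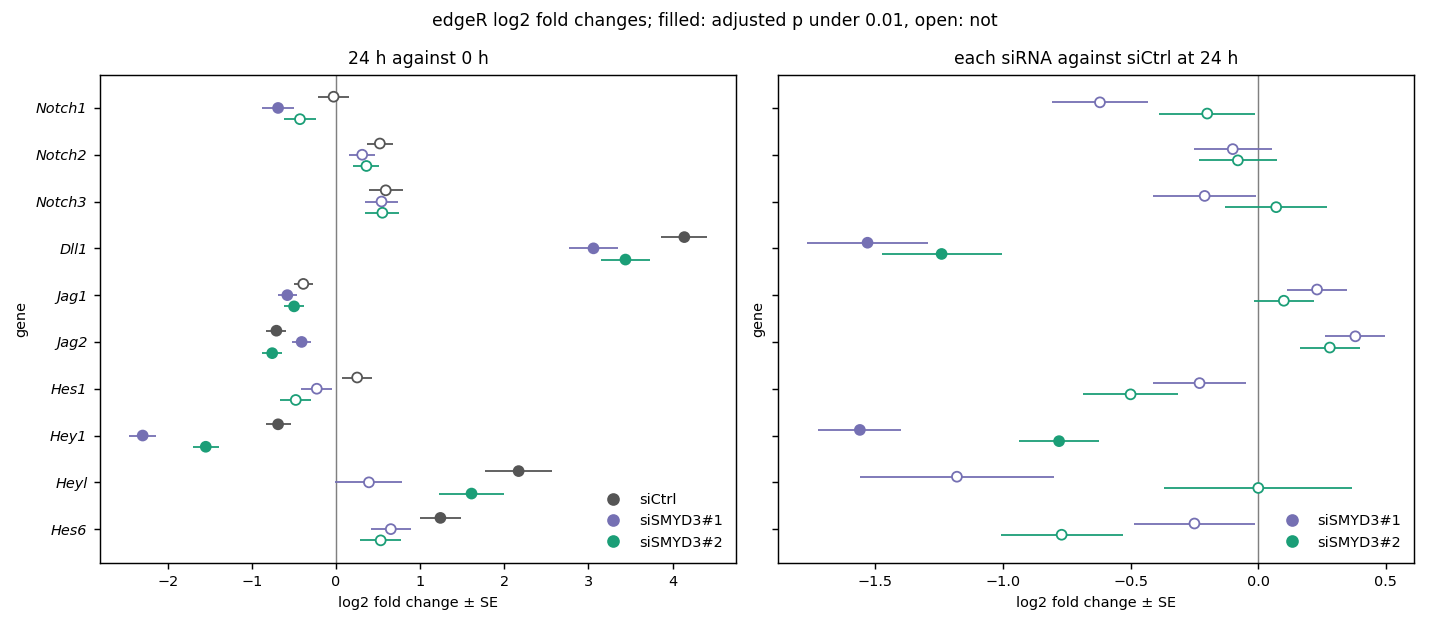
Fitted log2 fold changes of the 10 genes with their SE (edgeR, 3 libraries per group), between 24 h and 0 h for each siRNA on the left and against siCtrl at 24 h on the right. Filled points passed an adjusted p of 0.01, and on the right these are Dll1 and Hey1 for each siRNA, from -1.56 to -0.78.

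The remaining Notch pathway genes at 24 h gave smaller or less certain differences. Hes6 with siSMYD3#2 was 98.9 CPM with TRIzol and 60.9 and 59.7 with NucleoSpin, against 166, 109 and 100 in siCtrl. The groups did not overlap, but the difference of -0.77 (SE 0.239) did not pass (edgeR adjusted p = 0.0595). In the libraries labelled siSMYD3#1 it was -0.25 (interval -0.71 to 0.22). Heyl stood at 1.5, 4.57 and 2.76 CPM in those libraries, TRIzol first, against 3.69, 7.49 and 8.49 in siCtrl and 3.84, 7.22 and 8.31 with siSMYD3#2. Within each extraction it was lower in the libraries labelled siSMYD3#1 than in siCtrl, and the difference of -1.18 (SE 0.38) did not pass (edgeR adjusted p = 0.0572). With siSMYD3#2 the interval was -0.73 to 0.72. Notch1 was 43.0, 39.5 and 41.0 CPM in the libraries labelled siSMYD3#1, TRIzol first, and 71.0, 58.7 and 59.9 in siCtrl. These groups did not overlap, and the difference of -0.62 (SE 0.189) did not pass (edgeR adjusted p = 0.0457). With the NucleoSpin libraries alone Notch1 and Heyl did pass in this comparison (-0.56 and -1.06, edgeR adjusted p = 0.00176 and 0.00495), and so did Hes6 for siSMYD3#2 (-0.8, edgeR adjusted p = 0.000361). Jag2 was 0.38 higher with siSMYD3#1 and 0.28 with siSMYD3#2 (edgeR adjusted p = 0.0428 and 0.158), and Hes1 differed by -0.23 and -0.5 (0.508 and 0.112). For Notch2 the intervals were -0.4 to 0.2 and -0.38 to 0.22, and for Notch3 -0.61 to 0.18 and -0.32 to 0.46.

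Among the other pathway genes, Neurl1a was lower at 24 h with either siRNA, by -0.89 in the libraries labelled siSMYD3#1 (edgeR adjusted p = 0.00071) and -0.69 with siSMYD3#2 (edgeR adjusted p = 0.00789). It was the only 1 of 50 called for siSMYD3#2, a share below the 3.7% of all genes. In the libraries labelled siSMYD3#1, 5 of 50 were called, against 5.85% of all genes, and the others were Aph1a (-0.58) and Psen2 (-0.58), which were lower, and Ncstn (0.41) and Snw1 (0.33), which were higher. Snw1 encodes a cofactor of RBPJ. Rbpj itself differed by 0.03 and 0.02 for the siRNAs (edgeR adjusted p = 0.948 and 0.969), Maml1 by 0.07 and 0.1 (0.662 and 0.486) and Numb by -0.19 and 0.0 (0.2 and 0.999).

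The SMYD3 siRNAs differed from each other in Hey1. In the direct comparison at 24 h, 1 of 10 genes passed, where 3.36% of all genes did: Hey1 was lower by -0.78 (SE 0.165, 1.72-fold) in the libraries labelled siSMYD3#1 (edgeR adjusted p = 0.00638). Leaving out any 1 of the 6 libraries ended this call (edgeR adjusted p of 0.0172 to 0.0412), with differences of -0.71 to -0.85. For Dll1 the difference between the siRNAs was -0.3, with an interval of -0.76 to 0.17. Heyl (-1.17, edgeR adjusted p = 0.0688) and Hes6 (0.53, edgeR adjusted p = 0.206) did not pass.

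Within the cells that received SMYD3 siRNAs, the change from 0 h to 24 h again had Dll1 rising and Hey1 and Jag2 falling. Hes6, called in siCtrl cells, did not pass with siSMYD3#1 or siSMYD3#2 (0.65 and 0.53, edgeR adjusted p = 0.046 and 0.111). Heyl did not pass in the libraries labelled siSMYD3#1 (0.39, edgeR adjusted p = 0.47). In the libraries labelled siSMYD3#1, 5 of 10 genes passed, where 25.4% of all genes did, and 3 with replicates as a block. Dll1 rose by 3.06 (SE 0.292, 8.34-fold) and Hey1 fell by 2.3 (SE 0.162, 4.92-fold), with edgeR adjusted p of 9.26e-07 and 4.2e-08. Jag1 fell by 0.58 (edgeR adjusted p = 0.000707). Notch1 fell by 0.69 and Jag2 by 0.41 (edgeR adjusted p = 0.00877 and 0.00951), calls that the block ended (0.0113 and 0.0127). The Notch1 call was also lost without any 1 library except the TRIzol library at 0 h (-0.62 to -0.75, 0.0227 to 0.0469), and the Jag2 call without the NucleoSpin library at 186 CPM or the TRIzol library at 0 h, or the TRIzol library or the NucleoSpin library at 139 CPM at 24 h (-0.33 to -0.45, 0.0151 to 0.0465). With siSMYD3#2, 5 of 10 genes passed against 19% of all genes. Dll1 rose by 3.44 (10.8-fold) and Heyl by 1.61 (3.06-fold), with edgeR adjusted p of 4.49e-07 and 0.00465. Hey1 fell by 1.55 (2.92-fold), Jag2 by 0.76 and Jag1 by 0.5 (edgeR adjusted p = 1.58e-06, 0.000109 and 0.0028). The Heyl call was lost without either NucleoSpin library at 0 h, and without the NucleoSpin library at 8.31 CPM or the TRIzol library at 24 h (1.29 to 1.78, 0.0125 to 0.0275), and the Jag1 call without the NucleoSpin library at 17.5 CPM at 24 h (-0.48, 0.014). Notch1 (-0.43, edgeR adjusted p = 0.095) passed without the TRIzol library at 24 h (-0.77, 0.00268), and Hes1 (-0.48, edgeR adjusted p = 0.0571) without the TRIzol library at 0 h (-0.67, 0.00992).

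The change over 24 h was also compared directly with that of siCtrl cells. In the libraries labelled siSMYD3#1, Hey1 passed, 1 of 10 genes, where 0.215% of all genes were called. Hey1 went from 31.6 ± 3.21 to 19.4 ± 2.59 CPM with siCtrl and from 32.5 ± 3.13 to 6.67 ± 1.05 in those libraries (SD, n = 3). The difference between the changes was -1.61 (SE 0.218, interval -2.04 to -1.19, edgeR adjusted p = 0.001). This call was lost without extraction in the fit and with all 26 libraries in 1 fit (edgeR adjusted p = 0.0377 and 0.0842). Dll1 went from 1.59 ± 0.335 to 29.3 ± 4.45 CPM with siCtrl and from 1.22 ± 0.175 to the 24 h values given above (SD 2.02) with siSMYD3#1. Its change differed by -1.08 (SE 0.401), which did not pass (edgeR adjusted p = 0.371), and Heyl by -1.78 (edgeR adjusted p = 0.242). With siSMYD3#2, 0 of 10 genes were called with edgeR (background 0.019%), 2 had an unadjusted p under 0.05, and 0 were called with DESeq2. Hey1 had the smallest p there (-0.86, SE 0.214, edgeR adjusted p = 0.0925), and Dll1 differed by -0.71 (interval -1.48 to 0.07).

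Across the 18 siRNA libraries, with the mean of each extraction method removed, the genes whose log2 CPM followed these targets most closely were named as a description, among 10816 genes whose mean count was 100 or more. For Hey1 they were Nefl, Dusp2 and Surf2 (Pearson's r of 0.915, 0.909 and 0.906). Those for Hes6 were Sema4c, Adamts4 and Mical1 (0.957, 0.948 and 0.94), and those for Heyl were Lix1, Olfml2b and Cdh15 (0.929, 0.92 and 0.914). Hes1 had the weakest neighbours, Gm15710, Ndufb9 and Rpl36-ps12 (0.773, 0.765 and 0.764). The libraries share cell batches and fall into 6 groups by siRNA and time, and how much of each r lies between or within groups was not tested.

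In the overexpression experiment the SMYD3 CL5 libraries at 0 h stood far apart for several of the genes. Notch1 at 0 h was 42.4 and 11 CPM in SMYD3 CL5 and 71.7 and 65.2 in vector control cells. Hes1 was 14.7 and 41.1 CPM in SMYD3 CL5 against 42.3 and 46.6. Notch2 was 274 and 93.0 CPM against 254 and 215. The library low in Notch1 and Notch2 was thus not the one low in Hes1. At 24 h the SMYD3 CL5 libraries were closer for some genes, such as Jag2 (46.1 and 45.8 CPM). The plot of the overexpression libraries shows this spread.

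**Figure D3:**
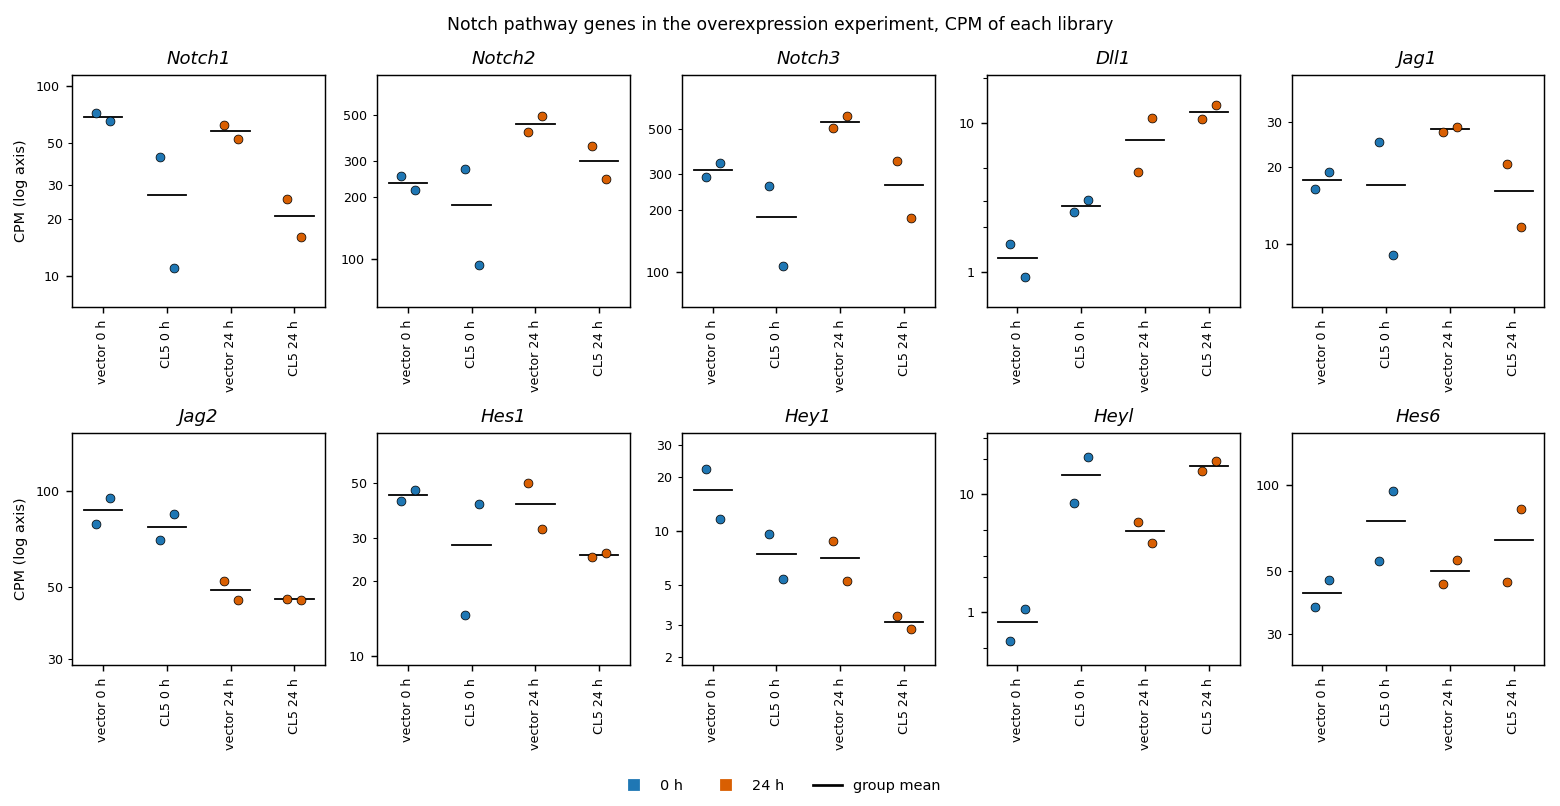
Level of each Notch pathway gene in each of the 8 overexpression libraries, in CPM on a log axis, for vector control and SMYD3 CL5 cells at 0 h and 24 h. Points are libraries and bars group means (n = 2), and the Heyl libraries of SMYD3 CL5 at 0 h (8.45 and 20.9 CPM) lie above those of the vector control (0.565 and 1.07).

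Between SMYD3 CL5 and vector control cells, with all 8 libraries and low counts filtered out, Heyl was the only Notch pathway gene that passed with edgeR. At 0 h it was 8.45 and 20.9 CPM in SMYD3 CL5 and 0.565 and 1.07 in vector control cells, without overlap. The difference was 4.14 (SE 0.558, 17.7-fold higher, edgeR adjusted p = 0.00998), and this was 1 of 10 genes where 1.07% of all genes passed. The call was lost without either vector control library (3.84 and 4.69, edgeR adjusted p = 0.105 and 0.072). Without SMYD3 CL5 replicate 1, the library at 8.45 CPM, Notch1 passed as well (-2.58, edgeR adjusted p = 0.00204). Hey1 was 9.56 and 5.4 CPM in SMYD3 CL5 against 22 and 11.7 in the vector control (-1.17, edgeR adjusted p = 0.218), and Dll1 was 2.52 and 3.05 against 1.54 and 0.925 (1.18, edgeR adjusted p = 0.237). Neither pair overlapped, and neither difference passed. With 2 libraries per group, groups can separate without any difference between the lines. The share of all genes that separated was not counted, so a lack of overlap is a description here and below. Muscle differentiation markers summed to 196 to 945 CPM in SMYD3 CL5 and 18.7 to 22.7 in the vector control at 0 h, with 2 of 13 past the threshold (median log2 difference 4.57), Myog among them (6.86). Whether these levels had a part in the Heyl difference was not tested.

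At 24 h, 0 of 10 genes passed between SMYD3 CL5 and the vector control with edgeR (background 0.964%), 3 had an unadjusted p under 0.05, and DESeq2 called 1. That gene was Heyl, at 15.7 and 19.4 CPM against 5.87 and 3.88, without overlap (1.85, edgeR adjusted p = 0.109, with 0.00705 by DESeq2). Muscle differentiation markers summed to 1652 to 1913 CPM in SMYD3 CL5 and 73.2 to 99.5 in the vector control at 24 h (median log2 difference 4.22), with 0 of 13 past the threshold, 8 at an edgeR adjusted p under 0.05, and their part in the Heyl values was not tested. Notch1 was 25.6 and 16.0 CPM against 62.3 and 52.9 (-1.47, edgeR adjusted p = 0.289), and Hey1 was 3.36 and 2.86 against 8.84 and 5.25 (-1.17, edgeR adjusted p = 0.284). These groups did not overlap either. Dll1 was 10.6 and 13.2 CPM in SMYD3 CL5 and 4.7 and 10.7 in the vector control, groups that overlapped (0.62, interval -0.23 to 1.48). Of the other pathway genes, 0 of 52 passed with edgeR at 0 h and 0 at 24 h, with 11 and 8 at an unadjusted p under 0.05.

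Over time in the overexpression experiment, no gene tested passed with edgeR in the fit of the 8 libraries with low counts filtered out. In vector control cells 0 of 10 Notch pathway genes were called (background 0%, for the adjusted p of edgeR). Without a share of all genes to set beside them, 4 had an unadjusted p under 0.05. DESeq2 called 2, Dll1 and Heyl. Dll1 went from 1.54 and 0.925 CPM to 4.7 and 10.7 (2.65, SE 0.476, edgeR adjusted p = 0.298), and Heyl from 0.565 and 1.07 to 5.87 and 3.88 (2.55, edgeR adjusted p = 0.365). In SMYD3 CL5, 0 of 10 were called (background 0%), 3 had an unadjusted p under 0.05, and DESeq2 called 1, Dll1, which went from 2.52 and 3.05 CPM to 10.6 and 13.2 (2.09, SE 0.458, edgeR adjusted p = 0.379). Notch2 passed in SMYD3 CL5 without its 0 h replicate 1, the library at 274 CPM (1.66 in place of 0.71, edgeR adjusted p = 0.00826). Jag2 went from 79.0 and 94.6 to 52.4 and 45.8 CPM in vector control cells and from 70.0 and 84.4 to 46.1 and 45.8 in SMYD3 CL5. Its groups did not overlap in either line, with differences of -0.82 and -0.75 (edgeR adjusted p = 0.449 and 0.548), and those of Hey1 were -1.26 in each. Jag1 went from 16.4 and 19.1 to 27.3 and 28.6 CPM in vector control cells, without overlap (0.66, edgeR adjusted p = 0.859). In SMYD3 CL5 its groups overlapped (-0.08). Tested directly, the change over time differed between the lines for 0 of 10 genes with edgeR (background 0%), 1 at an unadjusted p under 0.05 (Heyl, -2.3), and 0 with DESeq2. Heyl went from 14.7 ± 8.78 to 17.5 ± 2.67 CPM in SMYD3 CL5 (SD, n = 2), a difference of 0.26 (interval -0.67 to 1.19).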

How the data were processed

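The authors assessed stranded polyA RNA-Seq reads with FastQC 0.11.5, aligned them to GRCm38 with HISAT2 2.1.0, counted reads per gene with featureCounts of Subread 1.6.3 and deposited raw counts. The strand setting and annotation release of the counting are not given in the sources used here. Condition and extraction came from the sample labels, and replicate number and passage from the study's sample list, which calls the replicates biological. Of 55341 genes, 54495 are in GENCODE M21, and 0 pairs of libraries were identical. The 10 genes, the gene lists and the tests were chosen with earlier results of these data known.

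Counts were tested in R 4.3.3 with edgeR 4.0.16 (filterByExpr, TMM, robust quasi-likelihood test, Benjamini-Hochberg adjustment over all genes tested, threshold 0.01). The siRNA fit held 18 libraries in 6 groups with extraction as covariate (15820 genes), and the overexpression fit 8 libraries in 4 groups (17835 genes). Scripts were tested on simulated data. Same-numbered siRNA libraries deviated together in every pair (r 0.366 to 0.851). They also share an extraction, which was not removed here, so this cannot show pairing beyond extraction and passage. With the NucleoSpin libraries alone r was -0.041 to 0.177. Alternatives were DESeq2 1.42.0, other scaling, filters, thresholds and fits, the replicate block and leaving out each library. All 10 genes were named. Overlap between groups was looked at for these 10 genes only, without the share over all genes. Other pathway genes were named if past the threshold in siCtrl cells over time or against a control, with Rbpj, Maml1 and Numb always, and markers as counts with examples. Motifs were searched in RefSeq windows of 250 bases before to 50 after the start.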

Additional observations from a re-analysis of the deposited data

Results flagged for a closer look

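The change of Hey1 from 0 h to 24 h differed between groups by a direct test: it was -1.61 on the log2 scale (SE 0.218) in the libraries labelled siSMYD3#1 relative to siCtrl (edgeR adjusted p = 0.001), and lower in all 3 of those libraries at 24 h than in any siCtrl library. With each library left out in turn it was -1.41 to -1.76. In the same libraries Smyd3 was not called lower (-0.24 at 24 h, edgeR adjusted p = 0.414). Groups of 2 or 3 libraries were too small for a search for outlying samples.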

How the results depend on the processing

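Counts of Notch pathway genes past the threshold depended on the fit. Without extraction as a covariate they were 2 in siCtrl cells over time, 2 for siSMYD3#1 and 2 for siSMYD3#2 over time, 1 and 0 for siSMYD3#1 and siSMYD3#2 against siCtrl at 24 h, 0 between the siRNAs at 24 h and 0 for the change with siSMYD3#1. With all 26 libraries in 1 fit they were 2 and 3 for siSMYD3#1 and siSMYD3#2 over time, 0 for siSMYD3#2 against siCtrl and 0 between the siRNAs at 24 h, 0 for the change with siSMYD3#1, 2 in vector control cells and 1 in SMYD3 CL5 over time. With no filter on low counts they were 9 for siSMYD3#2 over time, 5 for siSMYD3#1 against siCtrl and 4 between the siRNAs at 24 h, 2 for the change with each siRNA, 2 in vector control cells and 1 in SMYD3 CL5 over time, and 2 between these lines at 0 h and 2 at 24 h. Of all genes, 3673 of 31510 were called for siSMYD3#2 over time without the filter, against 3004 of 15820 in the main fit. The NucleoSpin libraries alone gave 4 for siSMYD3#1 against siCtrl and 3 between the siRNAs at 24 h, and 1 for the change with siSMYD3#2. DESeq2 gave 2 in vector control cells and 1 in SMYD3 CL5 over time, and 1 between the lines at 24 h. At an adjusted p under 0.05 there were 8 in siCtrl cells over time, and 1 at 0 h and 4 at 24 h for siSMYD3#1. The share of all genes at an adjusted p under 0.05 is not given, so those counts are a description only. With replicates as a block siSMYD3#1 over time had 3 genes, and the block changed no other call. Leaving out 1 library gave 3 to 4 for siSMYD3#1 over time, 0 to 1 for siSMYD3#2 against siCtrl at 24 h, 0 between the siRNAs at 24 h, 0 to 1 in SMYD3 CL5 over time and 0 to 2 between the lines at 0 h. The causes were not tested.

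Of single gene values, 58 comparisons passed in some setting and 112 in none. The 58 kept their direction in all 444 values with 1 library left out and all 367 under other alternatives. Of these values, 45 and 31 lost the call and 4 and 44 gained it. The 58 were chosen for passing in some of these same settings, so their steady direction is no independent support. The 112 changed sign in 98 of 756 and 18 of 693 values, the largest being Notch1 in the change of SMYD3 CL5 against vector control (-0.11 against 1.17 without SMYD3 CL5 0 h replicate 1). A value that never passed was counted as moved if it shifted by over 1 SE, a rule set after seeing the data, and 85 and 11 did.

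Over all genes, 586 were called for siSMYD3#2 against siCtrl at 24 h, 1044 with DESeq2, 1170 unfiltered, 1275 with NucleoSpin alone, 88 in the joint fit and 18 without the covariate. For siSMYD3#1 these were 926, 1344, 1496, 1772, 342 and 102. Between SMYD3 CL5 and vector control they were 191 at 0 h and 172 at 24 h, 988 and 836 with DESeq2, 1246 and 1032 unfiltered, and 1995 and 1334 in the joint fit. For the change with siSMYD3#1 and siSMYD3#2 they were 34 and 3, 141 and 113 with DESeq2, 277 and 230 unfiltered, 160 and 175 with NucleoSpin alone, 6 and 0 in the joint fit, and 2 and 0 without the covariate. At 0 h they were 226 for siSMYD3#1, 84 for siSMYD3#2 and 185 between them, with ranges of 15 to 528, 5 to 210 and 11 to 468 over these settings. Between the siRNAs at 24 h they were 532 and 25 to 1486. Over time in siCtrl, siSMYD3#1 and siSMYD3#2 cells they were 4655, 4016 and 3004, 1676, 1053 and 583 without the covariate, and 2838, 2047 and 1264 in the joint fit. With 1 library left out, counts against siCtrl at 24 h were 474 to 1043 for siSMYD3#1 and 174 to 570 for siSMYD3#2, and those between SMYD3 CL5 and vector control were 0 to 2369 at 0 h and 0 to 12 at 24 h. Over time in SMYD3 CL5 cells they were then 0 to 1037. In vector control cells and SMYD3 CL5 over time they were 0 and 0, but 112 and 96 with DESeq2, 203 and 216 unfiltered, and 171 and 128 in the joint fit. With 2 libraries per overexpression group, an absent call is no sign of an equal level, and the lowest counts there were 18 for Heyl and 38 for Dll1. In the siRNA libraries they were 5 and 16.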
